A study of Mus musculus with 6 samples.

Results

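The genes described here are 10 genes of the Nrf2 pathway, which defends cells against oxidants and reactive chemicals. They are Nfe2l2, Keap1, Hmox1, Hmox2, Nqo1, Gclc, Gclm, Srxn1, Slc7a11 and Blvrb. They were taken by symbol, as the rows of the deposited tables whose identifier is one of these names, and all 10 were found among the 27378 genes listed for each library. The libraries were RNA-seq libraries of whole brain from wild-type male C57BL/6J mice, an inbred laboratory strain. In the PS group, 3 libraries came from mice given polystyrene nanoplastic, a particle pollutant, through the nose for 28 days. In the Control group, 3 libraries came from mice that received sterile distilled water through the nose for as long. Ages, particle size and dose are not given in the sources used here. The labels number the libraries within a group without saying that each is a separate animal. The p-values therefore set group differences against the spread between these libraries, which may be partly technical. For limma, the spread used for a gene is drawn partly from the other tested genes.

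Nfe2l2 encodes Nrf2, a transcription factor that is made continuously and destroyed quickly. Keap1 holds Nrf2 in the cytoplasm and passes it to a Cul3 ubiquitin ligase. When oxidants or electrophiles modify cysteines of Keap1, Nrf2 escapes, enters the nucleus, pairs with a small Maf protein and binds antioxidant response elements near its target genes. In brain this response is known to be stronger in astrocytes than in neurons. Nrf2 is controlled largely through the stability of the protein, which RNA levels do not measure.

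The antioxidant response element is shown first, because it is the sequence through which Nrf2 is known to reach its targets. The core TGACNNNGC was searched on both strands of the RefSeq promoter windows (build GRCm38.p6), each running from 250 bases before a transcription start to 50 after it. Of the 10 genes, 8 had at least 1 window, and Hmox1 and Gclc had none, so they were not searched. The core was found in the windows of 3 genes, Nfe2l2, Gclm and Srxn1. These were 3 of the 11 windows of the 8 genes, and of all 32851 windows 12.4% held it. The 3 matches follow, each read 5′ to 3′ on the strand of the match, with the core in capitals and 10 bases on either side. None of them overlaps TGACTCA, the AP-1 site that the core can contain. A match is a description of the letters and not a measured binding site, and the windows do not reach the distal elements through which some of these genes are known to respond.
Nfe2l2 (chr2:75704885-75704913, minus strand, the strand of the gene, 240 to 232 bases before the start): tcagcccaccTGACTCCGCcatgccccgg
Gclm (chr3:122245413-122245441, minus strand, opposite to the gene, 134 to 126 bases before the start): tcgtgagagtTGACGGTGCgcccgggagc
Srxn1 (chr2:152105542-152105570, minus strand, opposite to the gene, bases 29 to 37 of the transcript): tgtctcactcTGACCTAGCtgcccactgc

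The values are FPKM, fragments scaled by the length of the gene and by the reads of the library, so levels of different genes can be compared. The totals behind them were 39239183 to 40335590 reads per library. Markers of neurons, astrocytes and oligodendrocytes were present in every library, with sums of 1698 to 1855, 941 to 1055 and 1460 to 1650 FPKM in PS and of 1755 to 1793, 885 to 1050 and 1060 to 1528 FPKM in Control. The sums of red-cell, endothelial and meningeal fibroblast markers did not overlap between the groups. The 7 red-cell markers summed to 57.0 to 99.6 FPKM in PS and 128 to 197 FPKM in Control, and all 7 had a lower mean in PS. The 10 endothelial markers summed to 136 to 146 FPKM in PS and 164 to 196 FPKM in Control, with 9 lower. Slc2a1 alone was at 62.1 to 71.8 FPKM in PS and 80.2 to 101 FPKM in Control. The log2 fold changes (PS over Control) ran from -0.737 for Vwf to 0.013 for Tie1. Of the 10, only Vwf passed the limma test described below (adjusted p = 0.0101, where 0.164% of all tested genes passed). The groups did not overlap for 5 of the 10, beside 11.3% of all tested genes. The 6 meningeal fibroblast markers summed to 1280.3 to 1641 FPKM in PS and 1189 to 1273 FPKM in Control, and all 6 had a higher mean in PS, as did all 6 oligodendrocyte markers, whose sums overlapped. Most of the fibroblast sum was Ptgds, at 1234 to 1592 FPKM in PS and 1148 to 1235 FPKM in Control. Each of the 6 fibroblast markers, taken alone, overlapped between the groups. No marker of these lists was listed at 0 in any library. In bulk tissue, fewer cells of a type and less RNA per cell cannot be told apart.

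None of the 10 genes passed the test between PS and Control brains (limma on log2(FPKM + 1), Benjamini-Hochberg adjusted p from 0.801 to 0.996 over 12229 genes tested). Over all tested genes 20 passed, or 0.164%, and all 20 were lower in PS. On recovered reads, limma-voom called none of the 10 either, nor any gene of the 3 lists of other pathway genes given after them. At an unadjusted p under 0.05 there was 1 gene of the 10, Nqo1, against 5.94% of all tested genes. The PS and Control values did not overlap for 2 of the 10, Nqo1 and Gclc, against 11.3% of all tested genes. Of the 10 log2 fold changes (PS over Control), 5 were positive and 5 negative, with a median of 0.014 beside 0.003 over all tested genes. The median size without sign was 0.043, beside 0.057 over all tested genes. All 10 genes passed the filter of a mean of 1 FPKM over the 6 libraries, so none was left untested.

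**Figure D1:**
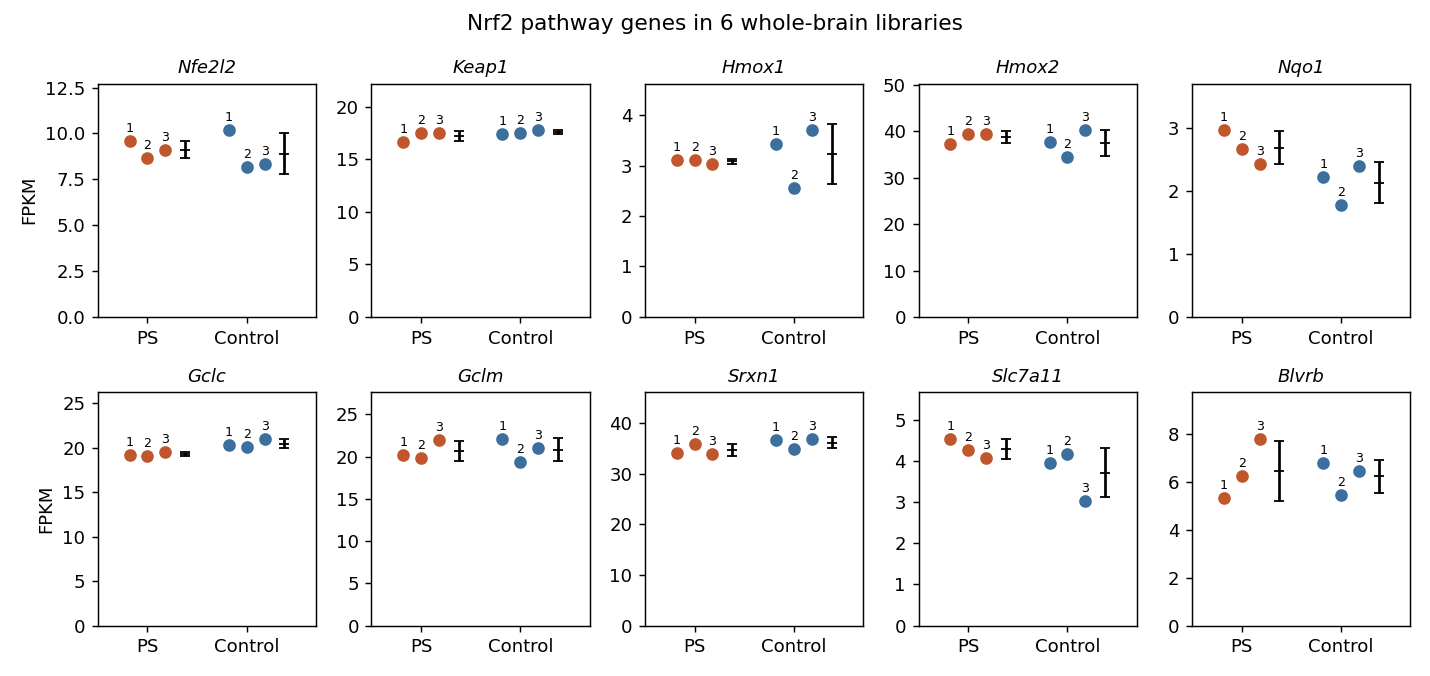
FPKM (vertical axes, from 0) of each of the 10 Nrf2 pathway genes in the 3 PS and the 3 Control libraries. Points carry the replicate number, and the bar beside each group is its mean ± SD (n = 3). The groups overlap for 8 genes; all PS points lie above all Control points for Nqo1 and below them for Gclc.

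In order of mean level over the 6 libraries, the genes ran from Hmox2 (38.1 FPKM) through Srxn1 (35.4), Gclm (20.7), Gclc (19.8), Keap1 (17.4), Nfe2l2 (9.0), Blvrb (6.34), Slc7a11 (4.0) and Hmox1 (3.15) to Nqo1 (2.41 FPKM). Hmox2 stood at percentile 86.7 of the levels of all tested genes and Nqo1 at percentile 16.0. Hmox2 and Srxn1, Gclm and Gclc, and Slc7a11 and Hmox1 had overlapping ranges, and each of these pairs kept its order in 5 of 6 libraries. Hmox1 was above Nqo1 in all 6 libraries although their ranges overlapped. The other 5 neighbouring pairs had ranges that did not overlap. The genes therefore fell into an upper set of 5, at 16.6 FPKM or above in every library, and a lower set of 5, at 10.2 FPKM or below in every library.

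The regulators Nfe2l2 and Keap1 had similar levels in both groups. Nfe2l2 was at 9.59, 8.65 and 9.10 FPKM in PS replicates 1, 2 and 3 and at 10.2, 8.14 and 8.35 FPKM in Control replicates 1, 2 and 3. Control replicate 1 was the highest library and Control replicate 2 the lowest, so the PS values lay within the Control range. The means were 9.11 ± 0.473 FPKM in PS and 8.89 ± 1.12 FPKM in Control (SD, n = 3 each), with a log2 fold change of 0.037 (SE 0.087, 95% interval from -0.159 to 0.234, limma adjusted p = 0.992). Leaving out Control replicate 2 or 3 made it -0.016 or -0.00015. Keap1, the sensor, was the steadiest gene of the 10 in Control. It was at 16.6, 17.5 and 17.6 FPKM in PS and at 17.4, 17.5 and 17.8 FPKM in Control. PS replicate 1 was the lowest library and the other 5 lay within 0.343 FPKM of each other. Its log2 fold change was -0.027 (SE 0.055, 95% interval from -0.151 to 0.097, adjusted p = 0.99). Within a library, the ratio of Nfe2l2 to Keap1 was 0.576, 0.494 and 0.518 in PS and 0.583, 0.464 and 0.470 in Control. These values overlap (exact permutation test, two-sided, p = 0.6, where 3 against 3 cannot go below 0.1, and 0.8 after Benjamini-Hochberg adjustment over 4 ratios).

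Hmox1, Hmox2 and Blvrb act in heme breakdown. Heme oxygenases open the heme ring and release iron, carbon monoxide and biliverdin, and Blvrb is a reductase of biliverdin and flavins that is abundant in red cells. Hmox1 is the inducible oxygenase and a classical Nrf2 target, and Hmox2 is the constitutive enzyme of neurons. Hmox1 was at 3.11, 3.11 and 3.03 FPKM in PS and at 3.42, 2.55 and 3.70 FPKM in Control. The 3 PS values lay close together between the lowest and the second of the Control values, and Control replicate 2 was again lowest. The means were 3.08 ± 0.0475 FPKM in PS and 3.22 ± 0.596 FPKM in Control (SD, n = 3 each). The coefficient of variation in PS, 1.54%, was smaller than the counting error of 7.11% that the mean read number of this gene gives (158 to 231 reads per library). On log2(FPKM + 1) the difference was -0.039 (SE 0.103, 95% interval from -0.273 to 0.195, adjusted p = 0.993), and leaving out a single Control library moved it as far as 0.043 (replicate 3) and -0.159 (replicate 2). On recovered reads, limma-voom put the fold of Hmox1 between 0.754 and 1.24 with 95% confidence.

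Hmox2 was at 37.2, 39.5 and 39.5 FPKM in PS and at 37.7, 34.5 and 40.3 FPKM in Control. The PS values again lay inside the Control range, whose ends were Control replicates 2 and 3 as for Hmox1. Its log2 fold change was 0.048 (SE 0.068, 95% interval from -0.106 to 0.201, adjusted p = 0.98), and -0.009 without Control replicate 2. Hmox1 reached at most 9.19% of the level of Hmox2, at ratios of 0.0835, 0.0789 and 0.0767 in PS and 0.0907, 0.0740 and 0.0919 in Control (exact permutation p = 0.4, adjusted p = 0.8).

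Blvrb was at 5.33, 6.26 and 7.79 FPKM in PS and at 6.79, 5.44 and 6.45 FPKM in Control. It was the most variable of the 10 genes in PS, where both its lowest and its highest library lay (coefficient of variation 19.2%, against 11.3% in Control). The log2 fold change was 0.038 (SE 0.122, 95% interval from -0.239 to 0.314, adjusted p = 0.995) and was -0.087 without PS replicate 3. PS replicate 3, highest in Blvrb, also had the highest red-cell marker sum of the PS libraries, 99.6 FPKM, beside 57.0 and 61.6 FPKM in PS replicates 1 and 2. The Control libraries had higher red-cell sums than any PS library, 197, 186 and 128 FPKM in replicates 1, 2 and 3, and each had less Blvrb than PS replicate 3. The part of red cells in the Blvrb values was not tested. The ratio of Blvrb to Hmox2 was 0.143, 0.159 and 0.197 in PS and 0.180, 0.158 and 0.160 in Control (exact permutation p = 0.9, adjusted p = 0.9). Blvra, the other biliverdin reductase, named here for its role, was at 11.02, 9.65 and 9.96 FPKM in PS and at 10.9, 8.99 and 11.4 FPKM in Control (log2 fold change -0.026, adjusted p = 0.995).

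Gclc, Gclm and Slc7a11 supply glutathione, the main thiol antioxidant of cells. Gclc is the catalytic and Gclm the modifier subunit of glutamate-cysteine ligase, and Slc7a11 is the xCT subunit of the transporter that imports cystine in exchange for glutamate. Gclc was at 19.2, 19.1 and 19.5 FPKM in PS and at 20.3, 20.0 and 21.0 FPKM in Control. All PS values lay below all Control values, with a gap of 0.517 FPKM between the nearest. The means were 19.3 ± 0.222 FPKM in PS and 20.4 ± 0.477 FPKM in Control (SD, n = 3 each). This log2 fold change of -0.081 (SE 0.053, 95% interval from -0.202 to 0.040) did not pass (limma unadjusted p = 0.163, adjusted p = 0.939). Gclm was at 20.1, 19.8 and 22.0 FPKM in PS and at 22.1, 19.3 and 21.0 FPKM in Control. Its groups overlapped almost entirely (log2 fold change -0.010, SE 0.070, 95% interval from -0.168 to 0.147, adjusted p = 0.996), and the sign of its difference turned when PS replicate 1 or 2 or Control replicate 1 was left out. The ratio of Gclc to Gclm was near 1 in every library, at 0.954, 0.964 and 0.887 in PS and 0.922, 1.04 and 0.998 in Control (exact permutation p = 0.4, adjusted p = 0.8).

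Slc7a11 was at 4.53, 4.27 and 4.06 FPKM in PS and at 3.94, 4.16 and 3.04 FPKM in Control. Control replicate 3 was far below the other 5 libraries, and Control replicate 2 lay above PS replicate 3, so the groups overlapped. The means were 4.29 ± 0.234 FPKM in PS and 3.71 ± 0.597 FPKM in Control (SD, n = 3 each). Slc7a11 had a log2 fold change of 0.172 (SE 0.099, 95% interval from -0.051 to 0.396, adjusted p = 0.899) and 0.065 without Control replicate 3. Slc3a2, the heavy chain that brings xCT to the membrane and named here for that role, was at 11.8, 11.9 and 11.8 FPKM in PS and at 12.2, 12.7 and 12.6 FPKM in Control. Its PS values lay below its Control values, with a log2 fold change of -0.073 (adjusted p = 0.95).

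Nqo1 and Srxn1 encode enzymes that act on oxidized molecules. Nqo1 reduces quinones and is widely used as a readout of Nrf2 activity, and Srxn1 is sulfiredoxin, which repairs overoxidized peroxiredoxins. Nqo1 was at 2.96, 2.66 and 2.43 FPKM in PS and at 2.22, 1.77 and 2.39 FPKM in Control. All PS values lay above all Control values, but PS replicate 3 and Control replicate 3 were only 0.0367 FPKM apart. The means were 2.68 ± 0.265 FPKM in PS and 2.13 ± 0.321 FPKM in Control (SD, n = 3 each), a ratio of 1.26. The log2 fold change, 0.239, was the largest of the 10 (SE 0.096, 95% interval from 0.021 to 0.457), with a limma unadjusted p = 0.0351 and an adjusted p = 0.801. Counting error from 233 to 397 reads per library is 5.58%, below the coefficients of variation of 9.86% in PS and 15.1% in Control. Without Control replicate 2, the lowest library, the log2 fold change was 0.154 (unadjusted p = 0.116, adjusted p = 0.859), and without PS replicate 1, the highest, 0.186 (unadjusted p = 0.127, adjusted p = 0.999).

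Srxn1 had the most reads of the 10 genes, 4620 to 4977 per library. It was at 34.1, 35.9 and 33.9 FPKM in PS and at 36.7, 34.8 and 36.8 FPKM in Control. PS replicate 2 lay above Control replicate 2, and the other PS values lay below all Control values. For Srxn1 the log2 fold change was -0.059 (SE 0.056, 95% interval from -0.185 to 0.068, adjusted p = 0.975). On recovered reads, limma-voom put its fold between 0.873 and 1.05 with 95% confidence, and for Gclc, Gclm, Keap1 and Hmox2 the ends of these intervals lay between 0.859 and 1.16. Wider intervals were those from 0.754 to 1.24 for Hmox1, from 0.8 to 1.32 for Blvrb and from 1.02 to 1.57 for Nqo1. So were those from 0.979 to 1.38 for Slc7a11 and from 0.883 to 1.2 for Nfe2l2. Width did not follow read number alone. Slc7a11 had 1129 to 1701 reads per library, and Gclm, with 1572 to 1824 reads, had an interval from 0.881 to 1.12.

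**Figure D2:**
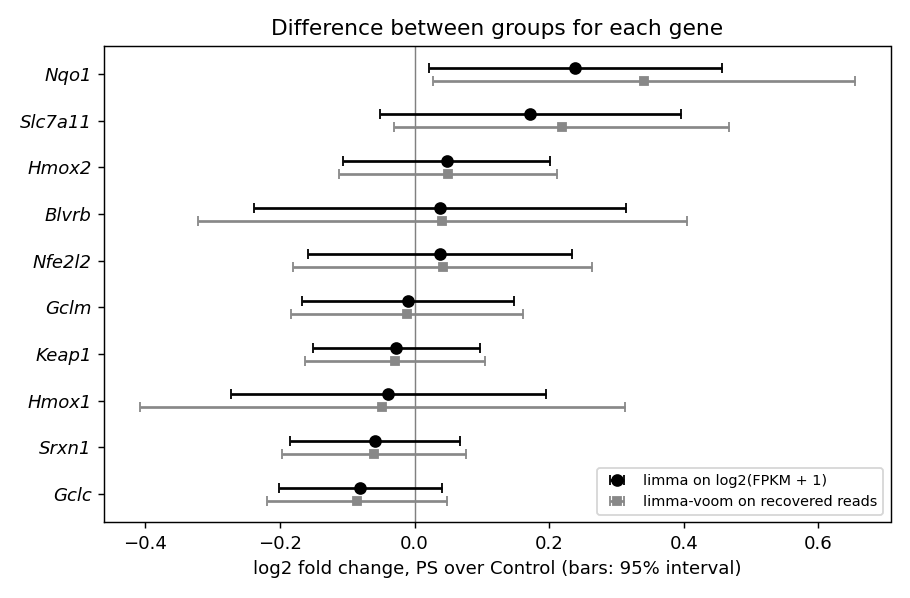
Log2 fold change (PS over Control, horizontal axis) of each gene with its 95% interval, from limma on log2(FPKM + 1) (black circles) and from limma-voom on recovered reads (grey squares). The Nqo1 interval, from 0.021 to 0.457 on FPKM, lies above 0 before adjustment for the genes tested, and the other 9 intervals span 0.

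Control replicate 2 was the lowest of the 6 libraries for 5 of the 10 genes, Nfe2l2, Hmox1, Hmox2, Nqo1 and Gclm, and over all tested genes it was the lowest for 30%. It was the highest for none of the 10, against 23.7% of all tested genes. Control replicate 3 was the highest for 5 genes, Keap1, Hmox1, Hmox2, Gclc and Srxn1, against 23.0% of all tested genes. Control replicate 2 also lay apart from the others on the first principal component of all tested genes, which held 42.3% of the variance. The coefficient of variation was smaller in PS than in Control for 7 of the 10 genes, a share of 70.0%, beside 68.4% of all tested genes. Summed over the 10 genes, the level was 153 to 159 FPKM in PS and 148 to 161 FPKM in Control.

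**Figure D3:**
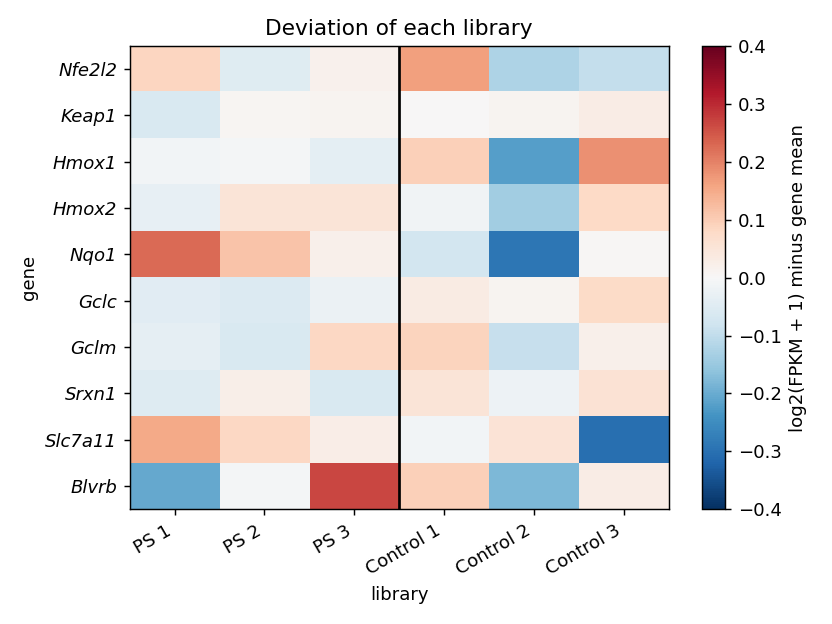
Deviation of log2(FPKM + 1) from the mean of each gene over the 6 libraries (colour, from -0.4 blue to 0.4 red) for the 10 genes (rows) in PS replicates 1 to 3 and Control replicates 1 to 3 (columns). Control replicate 2 is lowest for 5 genes, and the deepest blue cells are Slc7a11 in Control replicate 3 (-0.302) and Nqo1 in Control replicate 2 (-0.289).

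The other genes of the pathway were described from 3 lists, which were chosen with earlier results of these data known. Of 15 regulators and partners of Nrf2, 13 were tested and none passed (adjusted p from 0.154 to 0.998), and 1 had an unadjusted p under 0.05, beside 5.94% of all tested genes. The groups did not overlap for 2 of the 13, beside 11.3% of all tested genes, and the median log2 fold change was -0.001. The lowest p was that of Maff, which encodes a small Maf protein that can pair with Nrf2. Maff was at 0.692, 0.679 and 1.10 FPKM in PS and at 2.22, 2.13 and 1.45 FPKM in Control. All PS values lay below all Control values, at 90 to 145 reads in PS and 189 to 290 reads in Control. Its log2 fold change was -0.684 (SE 0.130, limma unadjusted p = 0.000541, adjusted p = 0.154). On this scale the change of so low a gene is understated, and it was -1.15 with a pseudocount of 0.1 and -1.24 by limma-voom on recovered reads. Maff passed without Control replicate 3 (adjusted p = 0.0318, where 0.54% of all genes passed) and with sample weights (adjusted p = 0.00271, where 5.17% passed), and in no other fit. The sample weights were 6.01 for Control replicate 1 and 0.326 and 0.353 for Control replicates 2 and 3, so the Control side of that fit rests mostly on 1 library.

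The other small Maf tested among the named genes, Mafg, was at 6.64, 6.24 and 6.65 FPKM in PS and at 7.56, 8.19 and 6.49 FPKM in Control (log2 fold change -0.158, adjusted p = 0.868, and -0.092 or -0.24 without Control replicate 2 or 3). Bach1, a repressor that competes with Nrf2 at antioxidant response elements and is itself released by heme, was at 2.92, 2.72 and 2.70 FPKM in PS and at 3.01, 3.42 and 3.05 FPKM in Control. Its PS values lay below its Control values (log2 fold change -0.138, adjusted p = 0.868). Nfe2l3, a relative of Nrf2, was at 1.74, 1.49 and 1.51 FPKM in PS and at 1.20, 1.15 and 1.59 FPKM in Control (log2 fold change 0.162, adjusted p = 0.908, and 0.278 by limma-voom and 0.247 without Control replicate 3). Nfe2 and Bach2 stayed below 1 FPKM in every library and were not tested.

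Of 36 other known targets of Nrf2, 29 were tested and none passed (adjusted p from 0.668 to 0.999). Their log2 fold changes ran from -0.243 to 0.196 with a median of 0.044, 18 positive and 11 negative. Over all tested genes the median was 0.003, with 6281 positive and 5948 negative. At an unadjusted p under 0.05 there were 2 higher and 1 lower in PS, beside 5.94% of all tested genes in both directions. The groups did not overlap for 5 of the 29, 1 with PS above and 4 with PS below, beside 11.3% of all tested genes. Ephx1, microsomal epoxide hydrolase, was at 17.2, 16.8 and 17.7 FPKM in PS and at 14.2, 14.5 and 16.1 FPKM in Control, with no overlap (log2 fold change 0.193, limma unadjusted p = 0.0149, adjusted p = 0.668). Gss, which completes glutathione after glutamate-cysteine ligase, was at 8.64, 9.06 and 8.86 FPKM in PS and at 7.21, 7.10 and 8.65 FPKM in Control (log2 fold change 0.192, unadjusted p = 0.0384, adjusted p = 0.817). Gsr, which recycles oxidized glutathione, pointed the other way. It was at 11.1, 9.93 and 11.1 FPKM in PS and at 11.7, 12.4 and 12.7 FPKM in Control, with no overlap (log2 fold change -0.180, unadjusted p = 0.0255, adjusted p = 0.752). Ugdh, which makes the sugar donor for glucuronidation, was at 9.24, 9.64 and 9.68 FPKM in PS and at 11.2, 10.5 and 10.1 FPKM in Control (log2 fold change -0.138, adjusted p = 0.842). With sample weights, Ephx1, Gss and Ugdh passed (adjusted p from 0.0192 to 0.0408), among the 5.17% of all genes that passed in that fit. The 7 targets not tested, among them Osgin1, Gpx2 and Abcc3, were below 1 FPKM in every library.

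Of 18 genes of heme synthesis, transport and breakdown, 14 were tested and none passed (adjusted p from 0.0751 to 0.997), and the median log2 fold change was 0.033. At an unadjusted p under 0.05 there was 1 gene, beside 5.94% of all tested genes, and the same gene was the only 1 without overlap, beside 11.3%. That gene was Alas2, the enzyme that starts heme synthesis in developing red cells. Alas2 was at 0.829, 0.651 and 1.04 FPKM in PS and at 3.11, 2.53 and 1.7 FPKM in Control. All PS values lay below all Control values (log2 fold change -0.889, SE 0.149, limma adjusted p = 0.0751). With a pseudocount of 0.1 the value was -1.42, and by limma-voom on recovered reads -1.52. It passed with the replicate number as a block (adjusted p = 0.0253, where 0.393% of all genes passed), without Control replicate 3 (adjusted p = 0.012) and with sample weights (adjusted p = 0.000878). Alas2 is also a red-cell marker, and the sum of the red-cell markers separated the groups in the same direction. The part of red-cell content in the Alas2 values was not tested.

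The remaining named heme genes overlapped between the groups. Slc46a1, a transporter of folate and heme, was at 4.01, 3.92 and 3.13 FPKM in PS and at 3.14, 2.41 and 3.63 FPKM in Control (log2 fold change 0.212, adjusted p = 0.903, and 0.093 without Control replicate 2). Ppox, a late enzyme of heme synthesis in mitochondria, was at 3.82, 3.97 and 4.34 FPKM in PS and at 4.38, 4.27 and 4.56 FPKM in Control (log2 fold change -0.100, adjusted p = 0.945). Urod, an earlier enzyme of the same route, was at 24.95, 26.96 and 25.8 FPKM in PS and at 24.6, 23.7 and 25.2 FPKM in Control (log2 fold change 0.075, adjusted p = 0.951, and 0.047 without PS replicate 2).

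**Figure D4:**
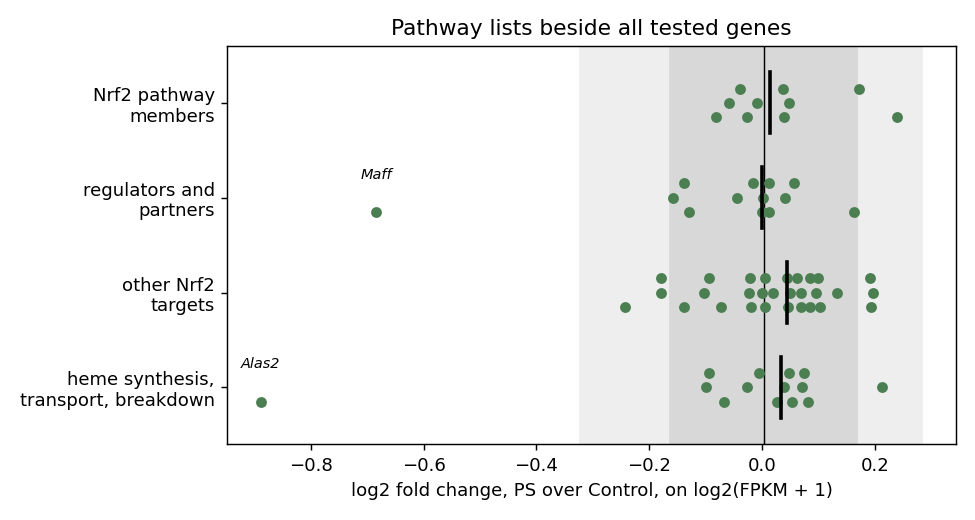
Log2 fold change (PS over Control, horizontal axis) of the 10 Nrf2 pathway genes and of the tested genes of the 3 other lists (rows; each point is 1 gene, thick bars are list medians). The dark and pale bands hold the 5th to 95th and the 1st to 99th percentiles of all 12229 tested genes, and the thin line is their median; Maff (-0.684) and Alas2 (-0.889) lie outside the pale band and all 10 pathway genes lie inside it.

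The genes whose profile over the 6 libraries was most like that of Hmox1 were Cyp51, Cfap36 and Rrp36. Their centred log2(FPKM + 1) values differed from those of Hmox1 by 0.0206, 0.0226 and 0.0236 on average, beside a mean deviation of 0.0927 of Hmox1 from its own mean. Cyp51, a demethylase of cholesterol synthesis, was at 13.2, 12.9 and 12.6 FPKM in PS and at 13.8, 10.9 and 14.2 FPKM in Control, so it shared the low Control replicate 2 and the close PS values. The genes most like Nfe2l2 were Hspa4l, Uchl5 and Rdx, with mean differences of 0.0199, 0.021 and 0.0219, beside 0.0892 for Nfe2l2 itself. Hspa4l, a chaperone of the Hsp110 family, was at 30.9, 26.6 and 28.6 FPKM in PS and at 31.2, 25.6 and 25.9 FPKM in Control. With 6 libraries and 12229 genes such close profiles are a description only.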

How the data were processed

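FPKM values, 1 table per library, were deposited by the authors. The submitters' processing notes name fastp, HISAT2, HTSeq, R 3.2.0 and GRCm39 without order or settings. Whether counting used strand is not stated there, so overlapping or near-identical genes are uncertain. Genes with a mean of at least 1 FPKM over the 6 libraries were kept (12229). On log2(FPKM + 1), limma 3.58.1 (R 4.3.3) tested PS against Control in a two-sided fit of group alone, moderated with a variance trend, with Benjamini-Hochberg adjustment over these genes and a threshold of 0.05. Fold changes on this scale understate those of low genes. Read numbers were recovered from the FPKM steps, with library totals set by 11 mitochondrial genes of annotated length; for 100% of tested genes 1 length made all 6 values whole within 0.02 reads. They give the depth and an alternative fit, limma-voom. Counting errors cover counting only. The procedure was tested on simulated data with independent noise and no effect shared across a library. That test cannot show how the fit behaves when 1 library lies apart, as Control replicate 2 did.

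Ratios were tested by exact permutation in Python 3.11.15 with scipy 1.17.1. Named genes are all 10 members, the 4 genes of lowest p in each of the 3 other lists, and the 3 profiles closest to Hmox1 and to Nfe2l2. Members and lists were chosen with earlier results of these data known. Replicate numbers run from 1 to 3 in both groups. The correlation of deviations (library minus group mean, 12229 genes) was 0.181, 0.185 and 0.161 for the pairs numbered 1, 2 and 3. Pairs of unlike number gave -0.217 to 0.0253. Deviations cancel within a group, so these correlations are not independent of each other. Each pair of like number exceeds 0.1, so a fit blocked on replicate number was added, on the evidence of the values alone. The main fit and the exact tests printed here used no pairing. The fit blocked on replicate number is given where it changes a call. Promoter sequences are RefSeq's on GRCm38.p6, and their coordinates were not joined to the FPKM values.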

Additional observations from a re-analysis of the deposited data

How the results depend on the processing

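No member was called under any of the 16 alternatives (15 for Hmox1, Nqo1 and Slc7a11, which a mean of at least 5 FPKM removes). Keap1, Nqo1, Gclc, Srxn1 and Slc7a11 kept their direction in all of them. With sample weights, Nfe2l2 turned to -0.122 and Blvrb to -0.032. With single libraries left out, the sign also turned, over ranges of -0.016 (Control replicate 2) to 0.128 for Nfe2l2, which was -0.00015 without Control replicate 3, of -0.159 to 0.043 (Control replicate 3) for Hmox1, of -0.009 (Control replicate 2) to 0.099 for Hmox2, of -0.06 to 0.031 (Control replicate 1) for Gclm, which was 0.006 and 0.018 without PS replicates 1 and 2, and of -0.087 (PS replicate 3) to 0.149 for Blvrb, which was -0.043 without Control replicate 2. Blvra ran from -0.122 to 0.035 (Control replicate 3), and the log2 ratio of Blvrb to Hmox2 from -0.136 to 0.094 (PS replicate 1). The cause was not tested. The median of the 10 moved to -0.054 with sample weights and ran from -0.036 to 0.042 with single libraries left out.

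The number of genes called over all tested genes, 20, was 1 with no filter, 9 at a mean of at least 5 FPKM, 632 with sample weights and 48 with the replicate block. With single libraries left out it ran from 0 (PS replicate 2) to 66 (Control replicate 3), with 2 without PS replicate 1 or Control replicate 1. In the 3 lists of other pathway genes, sample weights called 1 regulator, 3 other targets and 1 heme gene. The replicate block called 1 heme gene, Alas2, and changed no other call in these 3 lists or among the members. With single libraries left out each of the 3 lists had 0 or 1 call. Among the red-cell markers, the replicate block also called Hbb-bt, Hba-a1 and Hba-a2 (limma adjusted p = 0.0155, 0.026 and 0.0264). The main fit did not call them (adjusted p = 0.0626, 0.0685 and 0.0751). Hmox1, Nqo1 and Blvrb had the fewest reads of the members, and their counting errors of 5.58 to 7.11% were above those of the other members.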
